A study of Mus musculus with 6 samples.

Results

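Expression of 10 genes of fast skeletal muscle (Acta1, Ckm, Tnnt3, Mylpf, Myh1, Myh2, Myh4, Tnni2, Atp2a1 and Actn3) was followed, library by library, in the main olfactory epithelium, the nasal lining that carries the odour-sensing neurons. The genes were chosen by name, with earlier results of these data known. All 10 were found among the 31319 genes of the deposited table of raw read counts. Poly(A) RNA had been sequenced from male C57BL/6 mice aged 5 months, in 3 libraries of mice with a knockdown of the microRNAs miR-200b and miR-200a (KD-1 to KD-3) and 3 libraries of the control group, called NC in the labels (NC-1 to NC-3). The method of the knockdown, the cells it reached and the treatment of the control mice are not stated in the labels. Whether every library stems from a separate mouse is not stated, and the p-values then reflect only how these libraries vary, which may be technical variation.

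In a skeletal muscle fibre, myosin heavy chains of the thick filament pull on actin of the thin filament, and the troponin complex lets them do so only when calcium is present. Fast fibres carry the heavy chains encoded by Myh2, Myh1 and Myh4, and a calcium pump encoded by Atp2a1 returns calcium to the sarcoplasmic reticulum so that the fibre relaxes. The olfactory epithelium itself holds neurons, supporting cells, basal cells and glands and is not a muscle tissue, whereas striated muscle lies elsewhere in the head.

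These transcripts were scarce, and 4 of the 10 genes were counted mainly in 1 control library. Myh1 and Myh2 had 54 and 44 counts in NC-1 and 0 in each of the 5 other libraries. Myh4 and Ckm followed with 7 and 19 counts in NC-1 and at most 3 in any other library. Actn3, Tnni2 and Mylpf, in contrast, were counted in every library, with 13 to 57 counts. No difference between KD and NC passed the test for any of the 6 genes with counts in enough libraries to be tested. The same test called 0 of all 18444 tested genes. The tissue label is that of an epithelium, and of the 3 fast myosins that define these fibres, Myh1 and Myh2 were at 0 in 5 libraries and Myh4 in 3. The name skeletal muscle genes is used here for the genes, whatever cells their reads came from.

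Of the 6 libraries, KD-2 and NC-1 stood apart in the makeup of the tissue. Omp, the marker of mature olfactory neurons, had 149 counts in KD-2 and 24302 to 69388 in the others, and NC-1 had the highest sum of neuron markers and the lowest of gland markers. Total counts lay between 15704791 and 17618540 per library, so that where no read was counted up to 3 counts remain possible, or 0.170 to 0.191 per 1000000. The 10 genes together took 9.84, 7.0 and 9.29 counts per 1000000 total counts in the KD libraries (173, 110 and 161 counts). In the NC libraries they took 23.4, 10.5 and 7.74 per 1000000 (378, 185 and 132 counts). Values are given throughout in the order of the library numbers. NC-1 stood above the other libraries, with a 95% exact (Clopper-Pearson) interval of 21.1 to 25.9, while the intervals of the other 5 lay between 5.76 and 12.1. These intervals cover the counting error of reads only and leave out variation between libraries. The reads carry no molecular identifiers, so duplicate reads would make the intervals too narrow. The NC mean of 13.9 per 1000000 against a KD mean of 8.71 rested on NC-1, and without it the means were 9.12 and 8.71. Between KD and NC without NC-1 the libraries overlapped. In bulk tissue, fewer cells of a type and less RNA per cell cannot be told apart.

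**Figure D1:**
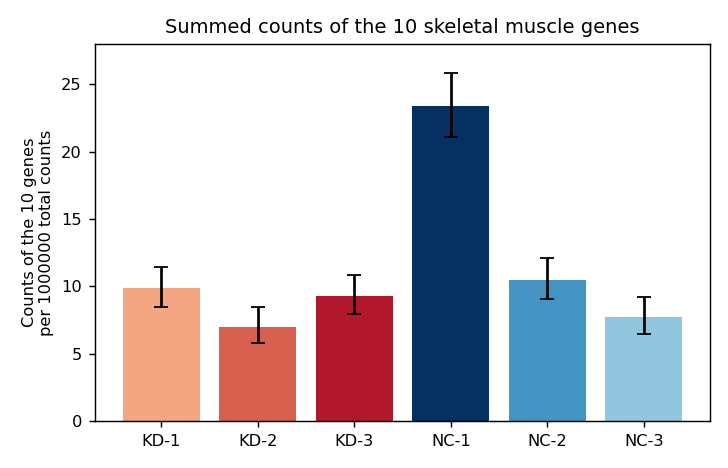
Summed raw counts of the 10 skeletal muscle genes per 1000000 total counts in each library (bars, KD in reds and NC in blues), with 95% exact intervals for counting error. NC-1 reaches 23.4, and the other 5 libraries lie between 7.0 and 10.5.

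The 3 fast myosin genes lie side by side on chromosome 11 (build GRCm38), Myh2 from 67171027 to 67197517, Myh1 from 67200052 to 67224575 and Myh4 from 67238029 to 67260446, all protein-coding and on the plus strand. Their promoters are shown because these 3 neighbours each had most of their counts in NC-1, with all of Myh1 and Myh2 and 7 of the 10 counts of Myh4. Each window runs from 250 bases before to 50 after the gene start of RefSeq (GRCm38.p6), printed 5′ to 3′. The capitals mark the longest run of bases that a search found identical in all 3.
Myh1 promoter, chr11:67199852-67200151, plus strand: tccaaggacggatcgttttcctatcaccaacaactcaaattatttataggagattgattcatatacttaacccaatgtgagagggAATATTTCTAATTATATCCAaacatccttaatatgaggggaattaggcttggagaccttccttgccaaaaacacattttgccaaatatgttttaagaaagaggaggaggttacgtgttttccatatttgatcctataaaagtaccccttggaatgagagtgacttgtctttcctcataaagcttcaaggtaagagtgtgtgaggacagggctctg
Myh2 promoter, chr11:67170777-67171076, plus strand: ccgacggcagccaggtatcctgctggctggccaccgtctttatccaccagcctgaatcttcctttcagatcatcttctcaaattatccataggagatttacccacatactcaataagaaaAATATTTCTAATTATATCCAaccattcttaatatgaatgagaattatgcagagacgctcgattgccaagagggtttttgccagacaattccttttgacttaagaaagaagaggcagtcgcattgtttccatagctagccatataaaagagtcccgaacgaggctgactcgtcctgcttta
Myh4 promoter, chr11:67237562-67237861, plus strand: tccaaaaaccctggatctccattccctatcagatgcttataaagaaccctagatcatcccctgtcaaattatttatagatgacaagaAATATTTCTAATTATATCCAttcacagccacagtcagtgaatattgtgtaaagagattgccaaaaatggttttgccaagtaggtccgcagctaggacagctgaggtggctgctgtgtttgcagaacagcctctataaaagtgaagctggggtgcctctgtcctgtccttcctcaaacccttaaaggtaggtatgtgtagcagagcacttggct
The shared run is 20 bases long and begins at position -165, -130 and -163 from the start of Myh1, Myh2 and Myh4. It was taken from these 3 windows, so that they hold it was fixed by the search. Of 32851 promoter windows of the same length, only these 3 held it on either strand (0.00913%). This share is a description and not a background for the run. The letters TATAAA were found on either strand in the windows of Myh1, Myh2, Myh4 and Acta1, that is in 4 of the 7 members with a window in the table, and in 13.6% of all windows. The consensus of MEF2, a transcription factor family of muscle, was present in Myh1 and Myh4 and in 3.19% of all windows. The CArG box, the site of serum response factor, was present in Acta1 and Myh4 and in 1.63% of all windows. The E-box CANNTG, the site type of the myogenic regulators, was in 5 of the 7 (Acta1, Atp2a1, Ckm, Myh4 and Mylpf) against 72.3% of all windows. These are matches of letters only, and overlaps between motifs were allowed. Windows for Tnnt3, Tnni2 and Actn3 were not used here.

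Among the thick filament genes, Myh1, the heavy chain of fast IIx fibres (ENSMUSG00000056328), had 54, 0 and 0 counts in the NC libraries and 0 in each KD library. NC-1 alone was above 0, at 3.33 normalised counts per 1000000 (CPM). Myh2, the heavy chain of IIa fibres (ENSMUSG00000033196), had 0, 0 and 0 against 44, 0 and 0 counts, again with NC-1 at 2.71 CPM and 5 libraries at 0. Set against a floor of 3 counts over the KD group, the NC group was at least 17.9-fold higher for Myh1 and at least 14.6-fold higher for Myh2. These bounds pool the NC libraries, but every NC count of both genes came from NC-1. NC-2 and NC-3 were at 0 like the KD libraries. Myh4, the heavy chain of IIb fibres (ENSMUSG00000057003), had 1, 0 and 0 counts in KD and 7, 0 and 2 in NC, and the groups overlapped at 0. In the authors' deposited table the log2 fold changes of KD over NC are -6.64 for Myh1, -6.35 for Myh2 and -3.04 for Myh4, with unadjusted p-values of 0.0445, 0.0587 and 0.193. The 3 genes stayed below the count filter of the edgeR fit and have no test in it. In a fit without that filter their adjusted p-values by edgeR's quasi-likelihood test were 0.39, 0.39 and 0.47.

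In NC-1 the mixture of fast myosins could be estimated. Of 105 counts of the 3 genes, Myh1 took 51.4% (95% exact interval 41.5 to 61.3), Myh2 took 41.9% (32.3 to 51.9) and Myh4 took 6.67% (2.72 to 13.3). The intervals of Myh1 and Myh2 overlap, and that of Myh4 lies below both. Per kilobase of exon the shares were 53.7%, 38.9% and 7.35%. Identical stretches could move reads between them. Of 6247 windows of 150 bases in Myh1 transcripts, 122 (1.95%) also occur unchanged in Myh2, and 15 (0.24%) in Myh4. Windows with a mismatch were not counted as shared, so near-identical stretches were not measured. An antisense gene covers 515 exon bases of Myh1 (8.11%) and another 237 of Myh2 (3.32%), and without a stated strand setting such reads cannot be told apart.

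The neighbouring heavy chains of the cluster were high in the same library. Myh3, the embryonic heavy chain (67078300 to 67102291), had 0, 2 and 6 counts in KD and 52, 6 and 0 in NC. Myh8, the perinatal heavy chain (67277124 to 67308634), had 11 counts in NC-1 and 0 in the 5 other libraries. Myh13, the extraocular heavy chain at the end of the cluster, had 0 counts in NC-1 and at most 3 elsewhere. Thus 5 of the 6 genes in the row had their highest count in NC-1. Over all 31319 genes, 5 had at least 10 counts in NC-1 and 0 in every other library, namely Myh1, Myh2, Myh8, A4gnt (92 counts) and A630073D07Rik (139 counts). The same rule, set after the values were seen, gave 2, 2 and 1 genes for the 3 KD libraries and 0 for both NC-2 and NC-3. In this count 3 of the 5 genes private to NC-1 were myosin heavy chains of skeletal muscle.

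**Figure D2:**
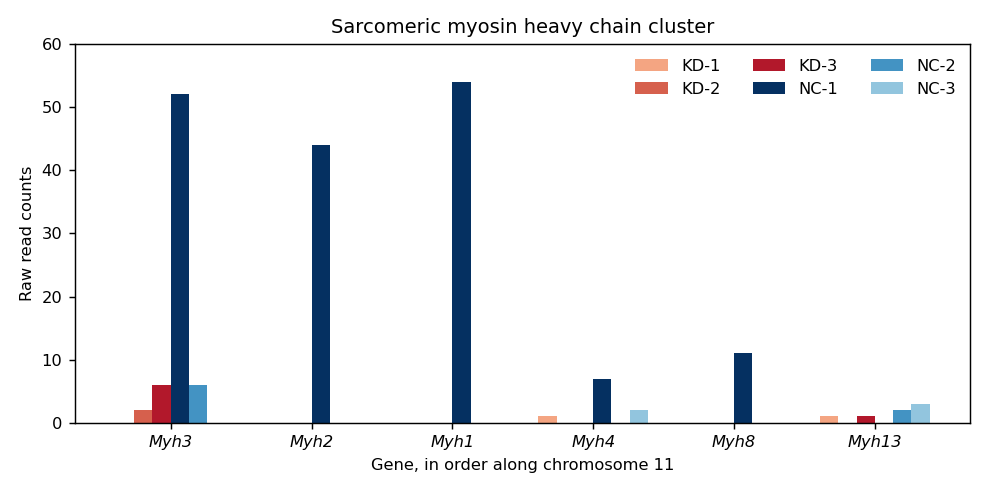
Raw read counts (linear axis) of 6 sarcomeric myosin heavy chain genes in their order along chromosome 11, with a bar for each library (KD in reds, NC in blues). NC-1 has 52, 44, 54, 7 and 11 counts from Myh3 to Myh8, and no other library exceeds 6 counts in any of the 6 genes.

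Mylpf, the fast regulatory light chain that sits on the myosin neck (chromosome 7, 127208890 to 127214298), did not share that pattern of absence. It had 21, 13 and 25 counts in KD and 29, 31 and 21 in NC. The CPM values were 1.23, 0.996 and 1.38 against 1.79, 1.58 and 1.18, so the groups overlapped. The log2 fold change of KD over NC was -0.33 (SE 0.332) with adjusted p = 0.55 by edgeR. Mylpf was counted at similar levels in libraries that held no Myh1 or Myh2 count at all.

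Among the thin filament genes, Acta1, the actin of skeletal muscle (ENSMUSG00000031972, chromosome 8, 123891769 to 123894751), had 25, 7 and 16 counts in KD and 50, 21 and 9 in NC. At 3.08 CPM NC-1 was the highest library, KD-1 followed at 1.46, and the lowest were KD-2 at 0.536 and NC-3 at 0.505, so the groups overlapped. The log2 fold change was -0.67 (SE 0.739), adjusted p = 0.58 by edgeR, and it was 0.29 without NC-1. None of its 1446 windows of 150 bases occurs unchanged in Acta2, Actc1 or Actg2, the smooth and cardiac actins. Near-identical windows were not counted. Tnnt3, the fast troponin T that anchors the troponin complex to tropomyosin (chromosome 7, 142498836 to 142516009), had 6, 20 and 8 counts in KD and 25, 11 and 11 in NC. KD-2 and NC-1 were level at 1.53 and 1.54 CPM, and the other 4 libraries lay between 0.35 and 0.617. Its log2 fold change was -0.25 (SE 0.728), adjusted p = 0.84 by edgeR, and 0.36 without NC-1.

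Tnni2, the fast troponin I that blocks the filaments at rest (ENSMUSG00000031097, chromosome 7, 142441808 to 142444410), ran the other way. It had 51, 28 and 32 counts in KD and 17, 29 and 19 in NC. All 3 KD libraries, at 2.98, 2.14 and 1.76 CPM, lay above the NC libraries at 1.05, 1.48 and 1.07 CPM, and NC-1 was the lowest of the 6. The log2 fold change was 0.93 (SE 0.354), with an unadjusted p of 0.038 and adjusted p = 0.28 by edgeR. The fold change lay between 0.69 and 1.10 over all alternatives, with adjusted p from 0.22 upward. In the authors' deposited table it stands at 0.91 with an unadjusted p of 0.0342. Tnni2 was the only 1 of the 6 tested members whose groups did not overlap, where 33.9% of 18444 tested genes had groups that did not overlap (15.3% with KD higher). Of the 6 tested members it was also the only 1 at an unadjusted p under 0.05 by edgeR. Of all tested genes 17.9% reached that level (8.7% with KD higher). Counted in either direction, 1 of 6 is below 33.9% and close to 17.9%. Counted with KD higher, it is close to 15.3% and above 8.7%. With 6 genes these shares cannot be set apart.

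Actn3, the alpha-actinin that crosslinks actin at the Z disc of fast fibres (ENSMUSG00000006457, chromosome 19, 4861216 to 4877909), was the most even member. It had 57, 30 and 42 counts in KD and 41, 52 and 44 in NC, or 3.33, 2.30 and 2.31 against 2.53, 2.66 and 2.47 CPM. NC-1 lay inside the range of the others. The group means were 2.65 ± 0.59 and 2.55 ± 0.0968 CPM (SD, n = 3 each), and the log2 fold change was 0.05 (SE 0.293), adjusted p = 0.92 by edgeR. With total counts in place of scaling factors the sign turned, at -0.09.

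Of the genes for calcium and energy, Atp2a1, the fast calcium pump (ENSMUSG00000030730, chromosome 7, 126445858 to 126463108), had 12, 12 and 37 counts in KD and 92, 41 and 23 in NC. NC-1 was highest at 5.67 CPM, NC-2 and KD-3 were close at 2.09 and 2.04, and KD-1 was lowest at 0.701. The log2 fold change was -1.29 (SE 0.699), adjusted p = 0.33 by edgeR, and moved to -0.46 without NC-1. Atp2a1 shares 763 exon bases (21.9% of its exons) with Rabep2 on the opposite strand, a gene with 682 to 1041 counts per library, so some of its reads are uncertain. Ckm, the creatine kinase that regenerates ATP in the fibre (ENSMUSG00000030399, chromosome 7, 19404776 to 19422841), had 0, 0 and 1 counts in KD and 19, 0 and 3 in NC. Its level was 1.17 CPM in NC-1 and 0.168 in NC-3, and NC-2 was at 0 like KD-1 and KD-2. It stayed below the count filter, and its unfiltered adjusted p by edgeR was 0.37. The antisense gene A930016O22Rik covers 451 exon bases of Ckm (15.5%) and had 5, 6 and 8 counts in KD and 11, 7 and 12 in NC, so reads in that stretch are uncertain.

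**Figure D3:**
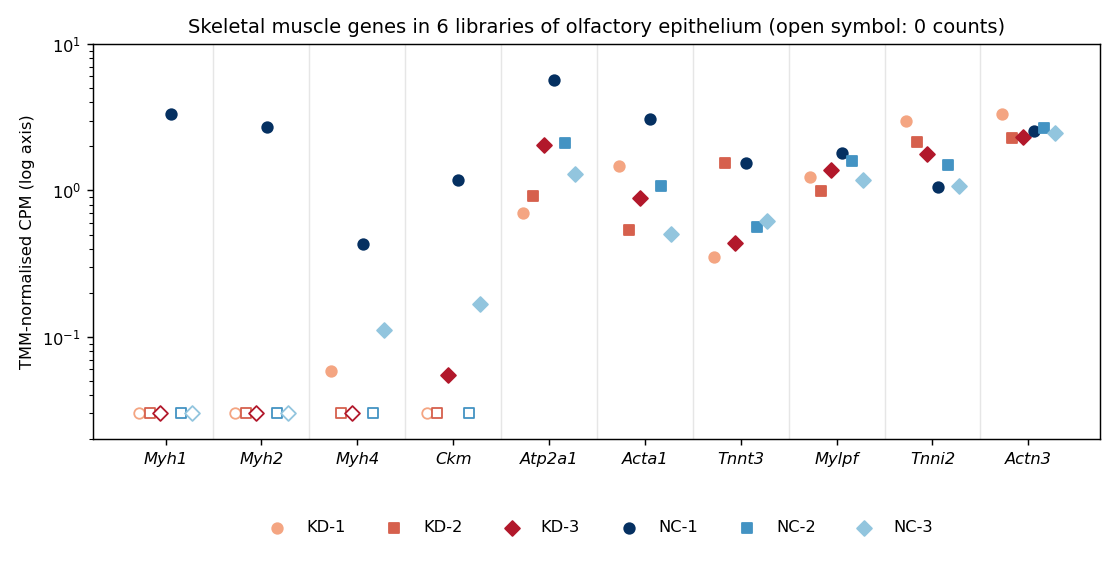
Normalised CPM (log axis) of the 10 skeletal muscle genes in each library, KD in reds and NC in blues, with an open symbol at the bottom for 0 counts. NC-1 (dark blue circle) is highest for 8 genes, among them Atp2a1 at 5.67 and Myh1 at 3.33 CPM, and lies within or below the others for Actn3 and Tnni2.

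Per kilobase of exon, the members could be set in order within a library. In NC-1 the level was highest for Acta1 (2.01 CPM per kilobase), Mylpf (1.68) and Atp2a1 (1.63), followed by Tnnt3 (0.974), Actn3 (0.872), Tnni2 (0.700) and Myh1 (0.524), with Ckm (0.402), Myh2 (0.380) and Myh4 (0.0718) last. In KD-2, which had the fewest counts of the members, Tnni2 (1.43) led, then Tnnt3 (0.968), Mylpf (0.938) and Actn3 (0.792), while 4 members were at 0. The order of the members thus differed between these libraries, and neighbours in it are separated by few counts. All members were low for this tissue: the most abundant, Actn3, had a mean of 2.60 CPM over the 6 libraries, against a median of 18.9 CPM over tested genes, and 19.4% of tested genes lay below it.

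Read as a set, the members gave no call. Of the 6 tested members, 0 passed edgeR's quasi-likelihood test at an adjusted p of 0.05, as did 0 of 18444 genes (0%), and DESeq2 and limma-voom also called 0 members. DESeq2 called 347 of 18390 genes (1.89%). The median log2 fold change of KD over NC over the 6 was -0.29, against 0.01 over all tested genes, and turned to 0.17 without NC-1 and to 0.05 without both NC-1 and KD-2. Over all 10 members in the fit without the count filter the median was -0.97, which includes fitted values for the 4 members near 0. The 4 members that did not pass the filter had most of their libraries at or near 0.

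The highest value of a member fell in NC-1 for 8 of 10 genes and in KD-1 for Tnni2 and Actn3. Over all genes deposited, 26.7% were highest in NC-1, and 24.8% of the 8403 genes whose summed counts lay in the members' range of 10 to 266. The members were chosen with earlier results of these data known, so these shares are a description and not a test. Among members, Atp2a1 followed Mylpf (Pearson r = 0.87 over the 6 libraries, log2 CPM with 0.1 added) and Acta1 (r = 0.65), and ran against Tnni2 (r = -0.74). Actn3 had r = -0.35 with Atp2a1 and 0.09 with Mylpf. These coefficients describe 6 libraries in which NC-1 is the extreme point. The mean log2 CPM of the 6 tested members was 0.50, 0.44 and 0.49 in KD and 1.24, 0.61 and 0.20 in NC. By a fixed rule the 10 genes outside the set with the most similar profile were Trim44 (r = 0.998), Daam1 (0.995), Golga1, Polr2b, Nbr1, Zbtb18, Ccdc137, Cul4a, Wdr60 and Zfp652 (0.978). Each had its highest value in NC-1, such as Trim44 at 181 CPM there and 128 to 146 in the other libraries. The members' mean was itself highest in NC-1, so the rule favoured genes that were high there. These were the highest coefficients of all 18444 tested genes over only 6 libraries, so their size does not by itself show a link to the members.

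Further genes of the sarcomere were high in NC-1 in some cases and low there in others. Of 31 listed genes in the table, 16 were tested, 0 were called in either direction, and 15 had their highest CPM in NC-1. Myl1, the fast essential light chain, had 29 counts in NC-1 and 1 to 3 elsewhere. Smpx, a small muscle protein, had 10 in NC-1 and at most 3 elsewhere, and Xirp2, an actin-binding protein of striated muscle, had 7 in NC-1 and 0 elsewhere. Ttn, the giant spring protein titin, had 67 in NC-1 and 16 to 31 elsewhere. Neb, the thin filament ruler nebulin, went the other way with 50 counts in NC-1 and 78 to 118 in the 5 other libraries, as did Mybpc2, a myosin-binding protein of fast fibres, with 15 and 25 to 37. These 6 were picked after their values were seen. The most abundant tested genes of the list were Tpm2 (106 ± 24.1 CPM in KD and 74.4 ± 20.5 in NC), Pdlim3 (16.5 ± 10.8 and 25.3 ± 5.23), Ldb3 (8.33 ± 6.61 and 18.5 ± 1.14) and Myom1 (5.16 ± 0.83 and 6.24 ± 2.06; SD, n = 3 each).

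**Figure D4:**
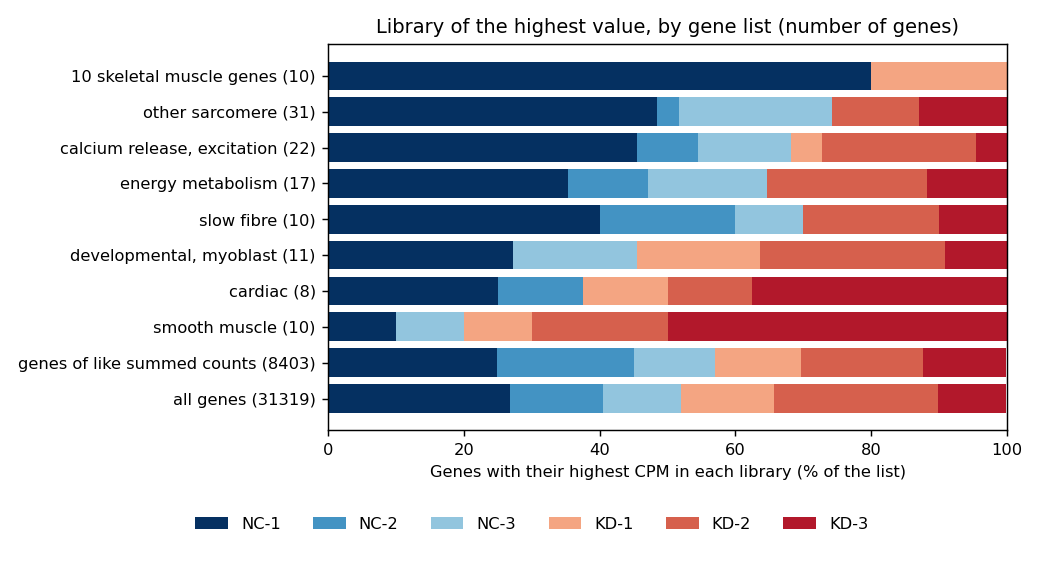
Share of the genes of each list (number in the table in brackets) whose highest CPM lay in each library (stacked bars, % of the list, NC in blues and KD in reds). NC-1 holds 8 of the 10 skeletal muscle genes and 15 of 31 other sarcomere genes, against 24.8% of genes with like summed counts and 26.7% of all genes.

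Of 22 genes of calcium release and excitation, 11 were tested, 0 were called, and 10 were highest in NC-1. The release channel gene Ryr1 had 25 counts in NC-1 and 30 to 44 elsewhere, and the voltage sensor gene Cacna1s had 5 in NC-1, 1 in NC-3 and 0 in the other 4. Casq1, the calcium-binding protein of the reticulum, had 47 in NC-1 and 8 to 35 elsewhere. The most abundant tested genes were Chrnb1 (20.1 ± 6.41 CPM in KD and 11.1 ± 5.43 in NC), Cacnb1 (16.6 ± 1.51 and 17.6 ± 4.3), Jph1 (8.27 ± 2.52 and 10.9 ± 0.859) and Jph2 (4.71 ± 1.32 and 6.19 ± 1.7).

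Of 17 genes of muscle energy metabolism, 14 were tested, 0 were called, and 6 were highest in NC-1. Mb, the oxygen store myoglobin, had 51 counts in NC-1 and 9 to 15 elsewhere. Pfkm, the muscle-type phosphofructokinase of glycolysis, averaged 32.5 ± 15.8 CPM over KD and 72 ± 4.66 over NC (log2 fold change -1.15, SE 0.363, adjusted p = 0.28 by edgeR), with all NC libraries above all KD libraries. Of all tested genes, 33.9% had groups that lay apart in either direction. Phka1 stood at 22.9 ± 3.66 and 35.0 ± 5.04, Eno3 at 25.5 ± 11.7 and 42.3 ± 1.45, and Gpd1 at 18.3 ± 5.65 and 11.7 ± 1.88 CPM. The list's median log2 fold change was -0.59, and it was -0.15 without NC-1.

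Slow fibre, developmental and other muscle genes were counted beside these. Of 10 slow fibre genes, 5 were tested and 0 called. Myh7, the slow heavy chain, had 13, 1 and 17 counts in KD and 28, 31 and 23 in NC, and was thus not confined to NC-1, and Tnnt1, the slow troponin T, had 127, 12 and 173 against 243, 215 and 303. For both genes KD-2 was the lowest library and all NC libraries were above all KD libraries. Groups that did not overlap, in either direction, were found for 33.9% of all tested genes. Tpm3 (459 ± 90.2 CPM in KD and 261 ± 93.8 in NC) and Atp2a2 (431 ± 54.8 and 422 ± 102) are also made outside muscle. Of 11 developmental and myoblast genes, 4 were tested and 0 called. The myogenic regulators Myod1, Myog and Myf6 had at most 1 count in any library, at the limit of detection, while Pax7, which marks muscle stem cells and other lineages, had 25, 47 and 38 counts in KD and 72, 40 and 25 in NC. Cdh15 (2.36 ± 1.72 and 6.07 ± 1.43 CPM), Pax3 (10.7 ± 1.62 and 8.47 ± 1.18) and Myl4 (5.18 ± 2.70 and 2.32 ± 1.62) were the other tested members.

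Markers of heart muscle did not go with NC-1 as a list, since 2 of 8 were highest there, among them Actc1, the cardiac actin, with 9 counts in NC-1 and 0 elsewhere. Myh6, a cardiac heavy chain, had 3, 4 and 9 counts in KD and 41, 18 and 23 in NC (log2 fold change -2.24, SE 0.591, adjusted p = 0.28 by edgeR), so all NC libraries were above all KD libraries. Such a gap, in either direction, was present in 33.9% of all tested genes. Tnni3 stood at 23.9 ± 3.79 and 14.1 ± 6.33, Mybpc3 at 1.39 ± 0.0453 and 0.694 ± 0.615 and Ryr2 at 1.62 ± 0.768 and 1.60 ± 0.747 CPM. Smooth muscle markers were present in every library, with a summed level of 357.5 to 509.8 CPM in KD and 361.8 to 452.4 in NC, and 1 of 10 was highest in NC-1. Acta2, the smooth muscle actin of vessels, stood at 296 ± 59.3 and 258 ± 43.4 CPM and Myh11 at 57.5 ± 19 and 63.5 ± 5.5, with Synm and Smtn at 21.1 ± 8.68 against 26.4 ± 7.81 and 27.4 ± 3.54 against 23.4 ± 5.49. Neither list had a called gene among its 5 and 9 tested.

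Markers of other cell types also differed between libraries, and the sums for neurons and glands, but not for cartilage and bone or fat, were extreme in NC-1. The 8 olfactory neuron markers, led by Omp (mature neurons), Stoml3, Gnal and Adcy3, summed to 3231, 70.8 and 4014 CPM in KD and 10900, 8180 and 6868 in NC, and 7 of the 8 were highest in NC-1. The 8 respiratory and gland markers, led by Ltf, Bpifa1, Muc5b and Scgb1c1, summed to 44780, 48960 and 33750 CPM in KD and 9200, 18200 and 21890 in NC, lowest in NC-1. Of the 10 cartilage and bone markers 5 were highest in NC-1, and their sum was 153 to 221 CPM in KD and 155 to 164 in NC, with Ibsp, Dmp1, Bglap and Col9a1 the most abundant. Fat cell markers summed to 1.65 to 3.29 CPM in KD and 1.02 to 1.79 in NC, mostly from Fabp4, with Adipoq at 0 to 4 counts, and 0 of 7 were highest in NC-1. Myh1, Myh2, Myh4 and Ckm were all at 0 in KD-2, which had the lowest sum of neuron markers, and in NC-2, which had the second highest. The part of the cell makeup of a library in the counts of the muscle genes was not tested.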

How the data were processed

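Raw read counts per gene were taken as deposited by the authors, in 6 columns that the file headers name by group and number. The same table holds the authors' mean of counts divided by size factors (a signal column, not used in results), the authors' log2 ratio of KD to NC and the authors' unadjusted p-value, per the file headers. Per the submitters' processing notes, the tools include HTSeq 0.6.0, TopHat2, HISAT2 2.1.0, Bowtie2 2.2.3, DESeq and DESeq2, without their roles, and the build was GRCm38. Neither strand setting nor annotation release is stated there or in the labels. Symbols of 25 rows damaged by a spreadsheet were restored by gene ID.

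KD and NC, 3 libraries each, were compared with edgeR 4.0.16 (R 4.3.3): TMM factors, the default filter on low counts, quasi-likelihood test without covariates, two-sided, Benjamini-Hochberg adjustment over 18444 tested genes, threshold 0.05. Standard errors were computed as the log2 fold change over the root of F. CPM are TMM-normalised. Total counts ran from 15704791 to 17618540, and the biological coefficient of variation was 40.9%. Alternatives were DESeq2 1.42.0, limma-voom (limma 3.58.1), other scalings, no filter, the replicate number as a block, and libraries left out. The fitting scripts were tested on simulated counts.

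Exon lengths, positions and transcripts are from GENCODE on GRCm38 (31251 gene IDs matched), promoters from RefSeq (GRCm38.p6; 7 of 10 members matched). The members and the 11 other lists were chosen with earlier results of these data known. Named genes are the members, the 4 tested genes of each list with the highest mean CPM, any past the threshold, the 10 genes most correlated with the members, and those said to be picked later; further genes described by counts were chosen after their values were seen.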

Additional observations from a re-analysis of the deposited data

How the results depend on the processing

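The number of members past the adjusted threshold was 0 under every alternative run (13 in all). Over all genes, DESeq2 called 347 where edgeR called 0, and leaving out both KD-2 and NC-1 gave 3; with 1 library left out the count was 0 throughout. The median log2 fold change of the members was -0.29 and moved to -0.97 without the filter on low counts, where all 10 members enter, and to 0.05 without KD-2 and NC-1. With 1 library left out it ran from -0.47 to 0.17, the latter without NC-1. Members with groups that do not overlap numbered 1, and 1 to 3 with 1 library left out and 2 without KD-2 and NC-1, where fewer libraries need to lie apart. The share of all tested genes was 33.9% with all libraries. It was not computed with libraries left out, so those counts of members stand without a background. The difference of KD from NC in the share of counts ran from -8.23 to -0.41 per 1000000 with 1 library left out, and was 0.45 without KD-2 and NC-1. The share of Myh1 among the 3 fast myosins was 52.1% per kilobase over all libraries, and 52.1% to 53.1% without any 1 library other than NC-1. It was 0% without NC-1 and without KD-2 and NC-1. There the only counts of the 3 genes were those of Myh4, 1 in KD-1 and 2 in NC-3. Those are too few to estimate a share.

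Signs of single members turned for Acta1 without NC-1 (0.29) and without KD-2 and NC-1 (0.58), for Tnnt3 without KD-1 (0.09), KD-3 (0.04) or NC-1 (0.36), and for Actn3 without KD-1 (-0.15) or on total counts with no scaling factor (-0.0906), all with adjusted p above the threshold in edgeR. The cause of these changes of sign was not tested. With 1 library left out Acta1 ran from -1.10 to 0.29, Tnnt3 from -1.15 to 0.36 and Actn3 from -0.15 to 0.17. Atp2a1, Mylpf and Tnni2 kept their sign. The labels number the replicates 1 to 3 in both groups, but same-numbered libraries did not deviate together in all pairs (r = 0.327, 0.118 and -0.256), so the numbers are not taken as pairs. With the replicate number as a block 0 genes and 0 members were called and the members' median was -0.34. Members with under 20 counts per library are limited by counting error. The main fit did not test 4 of 10, which had most of their libraries at or near 0.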
